A study of Homo sapiens with 6 samples.

Results

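The 6 entries of the count table described here, RN7SK, 7SK, RN7SL1, RN7SL2, RMRP and RPPH1, were chosen by their gene symbols and not by a threshold on any measured value. Earlier results of these data were known when the entries were chosen. They are abundant noncoding RNAs made by RNA polymerase III, and they were 6 of 30270 entries in the table. The 6 entries came from 5 places in the genome, because RN7SK and 7SK name the same locus. HEK 293T is a transformed human embryonic kidney cell line. Total RNA was reduced for ribosomal RNA and sequenced from 3 wild-type (WT) libraries and from 3 libraries of cells labelled as a double knockout of TENT3A and TENT3B, here ΔTUT4/7. TENT3A and TENT3B are other names of TUT4 and TUT7, enzymes that add uridines to the 3′ ends of RNAs. Neither group was treated, both were grown in the same medium, and the labels call the 3 libraries of each group biological replicates. The knockout line came from another laboratory, and whether it is 1 clone is not given in the sources used here, so a property of the line and an effect of the genotype cannot be told apart.

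RNA polymerase III makes short, untranslated RNAs and stops at a run of T in the DNA, which leaves a tail of uridines that the La protein binds. 7SK is the scaffold of a particle that holds the elongation kinase P-TEFb inactive. The RN7SL genes encode the RNA of the signal recognition particle (SRP), which brings ribosomes making secreted and membrane proteins to the endoplasmic reticulum. RMRP is the RNA of RNase MRP, which cuts precursor ribosomal RNA, and RPPH1 is the RNA of RNase P, which trims the 5′ ends of transfer RNAs. RMRP and RPPH1 share most of their protein partners.

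The entries are given in hg38 coordinates as listed in the table. RN7SK (chr6:52995621-52995948, plus strand, 328 bases) lay entirely inside 7SK (chr6:52995620-52995950, plus strand, 331 bases). RN7SL1 (chr14:49586580-49586878, plus strand, 299 bases) and RN7SL2 (chr14:49862550-49862849, minus strand, 300 bases) were separate loci on the same chromosome, with the related gene RN7SL3 between them (chr14:49853616-49853914, minus strand). RPPH1 (chr14:20343075-20343407, minus strand, 333 bases) lay whole inside a longer noncoding entry, AL355075.4 (chr14:20343048-20343685, minus strand, 638 bases). RMRP (chr9:35657751-35658018, minus strand, 268 bases) shared its bases with no other entry. The entries are annotated as an snRNA (RN7SK), miscellaneous RNAs (7SK, RN7SL1, RN7SL2), a ribozyme (RPPH1) and both a noncoding RNA and a ribozyme (RMRP).

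The reads were 76 bases long and had to be divided among near-identical genes. Over 299 bases, RN7SL2 differed from RN7SL1 at 4 positions and was 98.66% identical to it. RN7SL3 differed from RN7SL1 at 7 positions and was 97.66% identical. Of the 224 windows of 76 bases in RN7SL1, 130 (58%) also occurred in RN7SL2 and 48 in RN7SL3, so a single read of that length from those windows does not tell the genes apart. All 253 such windows of RN7SK occurred in 7SK, and all 258 of RPPH1 occurred in AL355075.4. The table divides such reads by an estimate, and a change in a single entry of these pairs rests on that division. Exact matches of 76 bases elsewhere in hg38 were found at 7 other places for 7SK, 5 for RN7SL1 and 4 for RN7SL2, and at 0 for RMRP and RPPH1.

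The 3′ ends of 3 of the genes are shown from hg38 with the T run at or past the end of the gene in capitals, since this is where a polymerase III transcript stops.
RN7SK: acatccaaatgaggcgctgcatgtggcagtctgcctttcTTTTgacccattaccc
RMRP: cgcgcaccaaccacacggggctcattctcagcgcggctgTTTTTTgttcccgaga
RPPH1: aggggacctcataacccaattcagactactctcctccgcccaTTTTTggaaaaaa
The run held 4 T in RN7SK, RN7SL1 and RN7SL2, 5 in RPPH1 and 6 in RMRP. It began inside the gene as listed in every case but RPPH1, where it began after 2 further bases. In the GENCODE 44 annotation RMRP spans chr9:35657754-35658017, and by that span its run too lies past the end.

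The 80 bases upstream of each gene are shown from hg38, because the 5 loci fell into 2 kinds there. Capitals mark TATA lying between -40 and -15, and TGACGT, the core of the ATF/CREB motif, or its reverse complement ACGTCA, anywhere in the 80 bases. In RN7SL1 the matches to TGACGT and ACGTCA overlap.
RN7SK: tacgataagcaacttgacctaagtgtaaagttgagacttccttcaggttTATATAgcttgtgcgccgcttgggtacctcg
RMRP: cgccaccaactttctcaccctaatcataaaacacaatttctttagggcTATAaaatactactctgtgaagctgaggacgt
RPPH1: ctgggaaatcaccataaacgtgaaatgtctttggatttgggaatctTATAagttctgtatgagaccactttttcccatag
RN7SL1: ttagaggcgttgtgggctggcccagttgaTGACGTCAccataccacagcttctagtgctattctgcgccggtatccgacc
RN7SL2: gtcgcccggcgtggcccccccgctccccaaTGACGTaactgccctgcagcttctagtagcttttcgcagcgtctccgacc
TATA began at -31 and -29 in RN7SK, at -32 in RMRP and at -34 in RPPH1, and neither RN7SL gene had it in that window. TGACGT began at -51 in RN7SL1 and at -50 in RN7SL2 and was found in none of the other 3 windows. Over 35116 RefSeq promoters (GRCh38.p14), 6.33% held TATA, which reads the same on both strands, at those positions and 3.61% held TGACGT or ACGTCA in the same 80 bases.

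The libraries held between 18757228 and 33148937 estimated counts. The 6 entries took 2.08%, 1.80% and 2.83% of the counts of WT replicates 1, 2 and 3, and 1.40%, 1.74% and 1.46% of those of ΔTUT4/7 replicates 1, 2 and 3. Levels are given below as CPM, the count scaled to a common library total as corrected by TMM, a factor that sets the bulk of genes equal between libraries. TUT4 went against the label of the knockout at the level of RNA, at 211 ± 5.08 CPM (SD, n = 3) in WT and 906 ± 21.4 CPM in the libraries labelled ΔTUT4/7, and TUT7 fell from 62.6 ± 2.17 to 26.3 ± 1.04 CPM. The part deleted is not given in the sources used here, so a gene count does not check it. All 7 genes listed for the line (KRT8, KRT18, PAX2, LHX1, VIM, CDH2 and NEFL) were detected. All 7 passed the edgeR test between the groups, where 57.7% of all genes tested did. Of the 7, 4 differed by at least 2-fold, a share not computed over all genes. VIM was at 496 CPM in WT and 1250 CPM in the libraries labelled ΔTUT4/7, CDH2 at 26.5 and 60.2, NEFL at 352 and 105, and KRT8 at 9.95 and 3.43. These differences of the lines stood beside those of the 6 entries, and their part in them was not tested. PTPRC was not in the table, PECAM1 and ALB were below 1 CPM in every library, and COL1A1 was at 20.4 CPM in WT and 7.45 CPM in the libraries labelled ΔTUT4/7.

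Of the 6 entries, 5 were lower by their estimates in the libraries labelled ΔTUT4/7, and RMRP was higher. In edgeR's quasi-likelihood test 1 of the 6 passed an adjusted p (Benjamini-Hochberg) of 0.05, against 57.7% of the 23952 genes tested. Of the 6, 3 entries, RN7SK, 7SK and RN7SL2, did not overlap between the groups, against 62.8% of all genes, and all 3 were lower, where 31.8% of all genes were lower without overlap. With 6 entries from 5 loci, and with RN7SK and 7SK sharing reads, the number called is given as a description. Over all genes the median log2 fold change was -0.02. In RNA of whole cultures, less RNA per cell and fewer cells holding it cannot be told apart.

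RN7SK, the 7SK RNA itself, was at 4704, 4359 and 5915 CPM in WT replicates 1, 2 and 3. In replicates 1, 2 and 3 labelled ΔTUT4/7 it was at 3436, 3923 and 3153 CPM. All 3 of these were below every WT library. RN7SK fell from a mean of 4993 ± 817 to 3504 ± 389 CPM (SD, n = 3), and its log2 fold change was -0.51 ± 0.16 (SE, 95% interval -0.93 to -0.09) with an adjusted p of 0.0472 in edgeR. The 7SK entry, over the same bases, was at 2919, 2607 and 4025 CPM in WT and at 2064, 2399 and 1969 CPM in the libraries labelled ΔTUT4/7. The groups again did not overlap, and its log2 fold change of -0.57 ± 0.20 (SE) had an edgeR adjusted p of 0.0768. The 7SK entry took 38.7% ± 1.58 of the locus's counts in WT and 37.97% ± 0.46 in the libraries labelled ΔTUT4/7 (SD, n = 3), and these overlapped (exact permutation test, 2-sided p = 0.7).

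Since a read from this locus belongs to both entries, their sum is the level of 7SK RNA. It was 7624, 6966 and 9940 CPM in WT and 5500, 6322 and 5122 CPM in the libraries labelled ΔTUT4/7. The 2 groups did not overlap, with the WT libraries the higher. The log2 fold change of the sum was -0.53 ± 0.17 (SE, 95% interval -1.01 to -0.06) and its edgeR adjusted p was 0.0592, so the call on RN7SK alone was lost when its second entry was added. Without WT replicate 3, the highest library, the sum differed less, by -0.38 ± 0.09 (SE), but at an edgeR adjusted p of 0.00805.

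RN7SL1, the first of the SRP RNA genes, was at 4477, 3957 and 6825 CPM in WT and at 3145, 4626 and 3753 CPM in the libraries labelled ΔTUT4/7. The groups overlapped, since ΔTUT4/7 replicate 2 lay above WT replicates 1 and 2. Its log2 fold change of -0.41 ± 0.28 (SE, 95% interval -1.18 to 0.37) had an edgeR adjusted p of 0.300. RN7SL2 was at 3780, 3281 and 5346 CPM in WT and at 2171, 2853 and 2496 CPM in the libraries labelled ΔTUT4/7. Here the groups did not overlap, and the estimate was the lowest of the 6, at -0.72 ± 0.24 (SE, 95% interval -1.37 to -0.08) with an edgeR adjusted p of 0.0604. RN7SL3, which is no member of the 6, was at 38.6 ± 8.19 CPM in WT and 40.8 ± 7.40 CPM in the libraries labelled ΔTUT4/7. Summed over RN7SL1, RN7SL2 and RN7SL3, the SRP RNA differed by -0.54 ± 0.26 (SE, 95% interval -1.25 to 0.18), with overlapping groups and an edgeR adjusted p of 0.161. Without WT replicate 3 it was -0.29 ± 0.19 (SE).

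RMRP, the RNA of RNase MRP, was at 1753, 1281 and 2632 CPM in WT and at 2079, 2428 and 2081 CPM in the libraries labelled ΔTUT4/7. The 3 libraries labelled ΔTUT4/7 lay inside the WT range. Its log2 fold change of 0.22 ± 0.30 (SE, 95% interval -0.61 to 1.05) had an edgeR adjusted p of 0.594, and it was the member whose 95% interval reached farthest above 0. Without WT replicate 2, the lowest library, it was -0.002. RPPH1, the RNA of RNase P, was at 2207, 1709 and 2851 CPM in WT and at 1629, 2061 and 1715 CPM in the libraries labelled ΔTUT4/7, again with overlap. Its log2 fold change was -0.33 ± 0.23 (SE, 95% interval -0.96 to 0.31), with an edgeR adjusted p of 0.305. AL355075.4, the entry that holds RPPH1 whole, was at 1062, 697 and 935 CPM in WT and at 1123, 1167 and 856 CPM in the libraries labelled ΔTUT4/7. The sum of both entries differed by -0.15 ± 0.21 (SE, edgeR adjusted p = 0.602), and it was -0.001 without WT replicate 3.

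**Figure D1:**
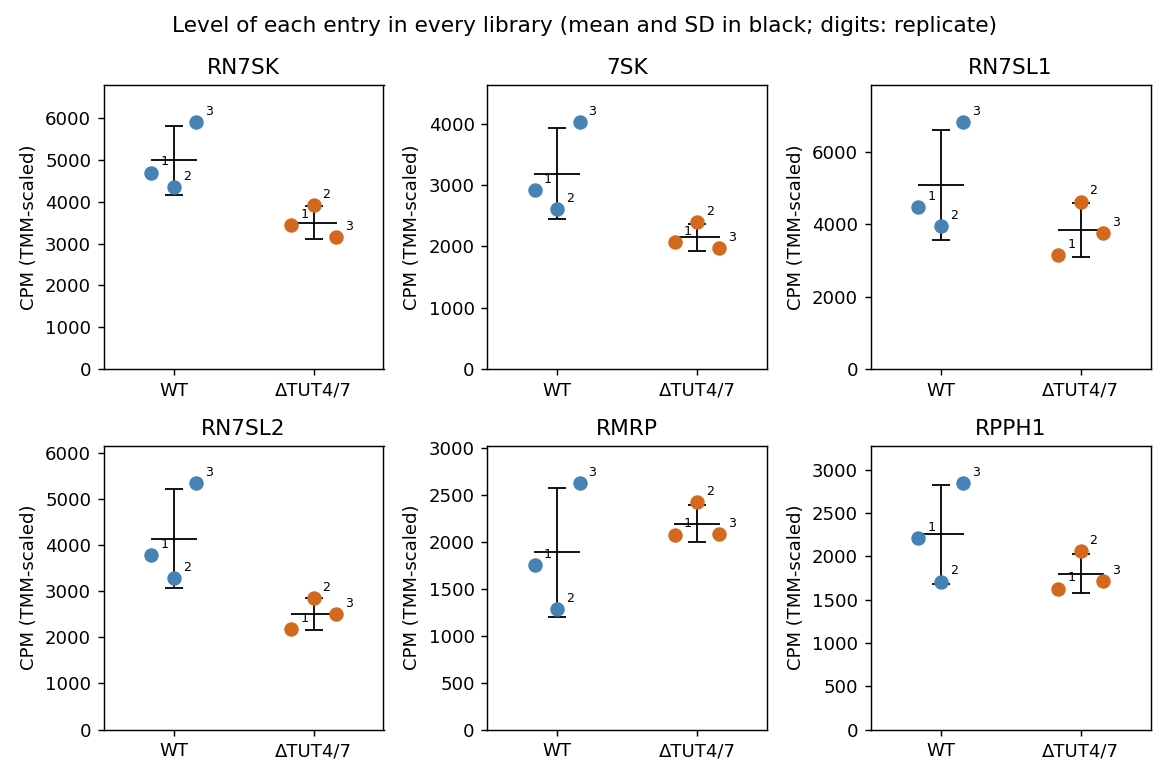
CPM of each of the 6 entries (vertical axis, from 0) in the WT and ΔTUT4/7 libraries, each point a library numbered by its replicate, with the mean and SD of 3 libraries in black. WT replicate 3 is the highest WT library in all 6 panels, and the groups do not overlap for RN7SK, 7SK and RN7SL2.

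Levels can be set side by side per kilobase of RNA. In WT the 7SK locus stood highest at 24703 ± 4719 CPM per kb (SD, n = 3), then RN7SL1 at 17011 ± 5110, RN7SL2 at 13786 ± 3593, RMRP at 7046 ± 2558 and RPPH1 at 6774 ± 1719. Only RN7SL2 and RMRP, of the neighbours in this order, did not overlap in WT. In the libraries labelled ΔTUT4/7 the order of the means was the same, at 17062 ± 1853, 12848 ± 2490, 8356 ± 1138, 8194 ± 750 and 5410 ± 686 CPM per kb. There RMRP overlapped RN7SL2, its neighbour above, and not RPPH1. The split between RN7SL1 and RN7SL2 rests on the estimated division of shared reads, as does the level of RPPH1 apart from AL355075.4.

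The 6 entries varied together between libraries of the same group. In every one of them WT replicate 3 was the highest and WT replicate 2 the lowest of the WT libraries, and ΔTUT4/7 replicate 2 was the highest of its group. Of the 10999 genes with a mean of 10 CPM or more, 18.4% had that WT order and 7.16% also had ΔTUT4/7 replicate 2 highest. The members are not independent in this, because RN7SK and 7SK, and RN7SL1 and RN7SL2, share reads.

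**Figure D2:**
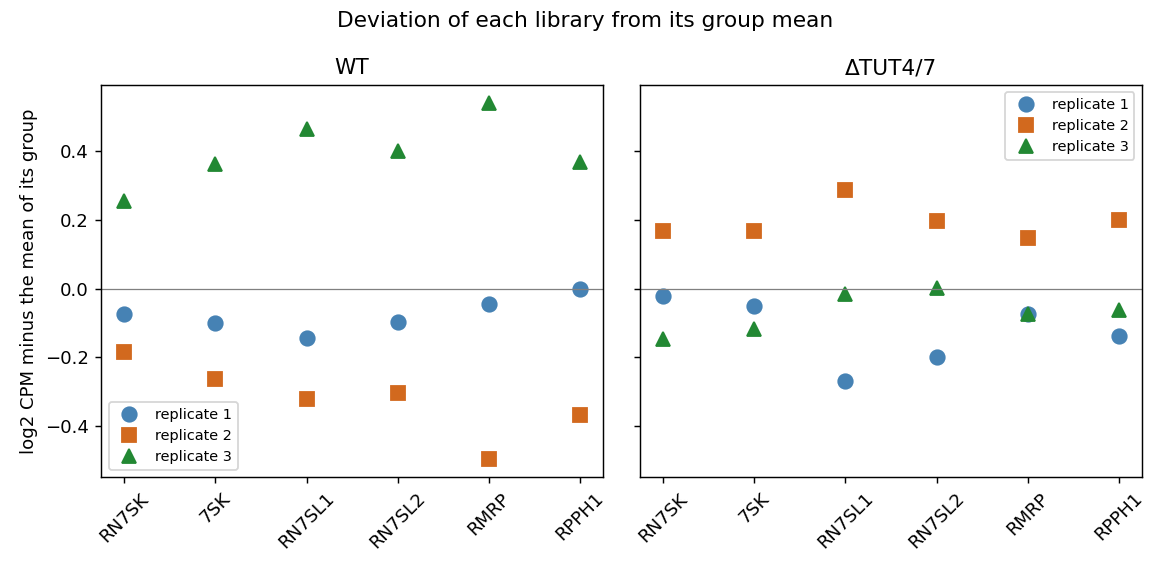
log2 CPM of each entry minus the mean of its group (vertical axis), with WT libraries on the left and ΔTUT4/7 libraries on the right and a symbol for each replicate. WT replicate 3 lies highest and WT replicate 2 lowest for all 6 entries, and ΔTUT4/7 replicate 2 lies highest in its group for all 6.

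The coefficient of variation (SD over mean) in WT ran from 16.4% for RN7SK to 36.3% for RMRP, with RN7SL1 at 30.04%. In the libraries labelled ΔTUT4/7 it ran from 9.15% for RMRP to 19.4% for RN7SL1. Genes of a mean level within 2-fold of a member had median coefficients between 4.18% and 7.82% in WT and between 1.72% and 2.69% in the libraries labelled ΔTUT4/7. Each member varied more than every one of its like-level genes in both groups, except RN7SK in WT, which varied more than 87.5% of 8 such genes. There were only 6 to 42 such genes for a member.

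Other RNAs were also high in WT replicate 3. The summed snoRNA and scaRNA genes were at 341, 325 and 461 CPM in WT and at 322, 368 and 335 CPM in the libraries labelled ΔTUT4/7. The summed snRNA genes other than RN7SK were at 154, 134 and 274 CPM in WT and at 105, 76.3 and 107 CPM in the libraries labelled ΔTUT4/7. Mitochondrial genes were at 19704, 20310 and 25805 CPM in WT and at 17324, 18320 and 17821 CPM in the libraries labelled ΔTUT4/7. WT replicate 3 was the highest WT library in all 3 of these sums, and also for MALAT1, an abundant nuclear RNA, at 8054, 7667 and 8921 CPM in WT and 3701, 3783 and 3829 CPM in the libraries labelled ΔTUT4/7. Histone genes did not follow it, at 7746, 7388 and 7720 CPM in WT and 8835, 9887 and 8451 CPM in the libraries labelled ΔTUT4/7. Protein-coding genes summed to 838353, 839336 and 847275 CPM in WT and to 934594, 947008 and 938150 CPM in the libraries labelled ΔTUT4/7, without overlap. These sums carry the TMM factors, 1.027 to 1.048 in WT and 0.9513 to 0.9676 in the libraries labelled ΔTUT4/7. They are therefore not shares of the library total. In such shares the groups lie closer together for the protein-coding and histone sums, which were higher in the libraries labelled ΔTUT4/7. For MALAT1 and the mitochondrial and snRNA sums, which were higher in WT, they lie farther apart. The part of library composition in the members' differences was not tested.

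**Figure D3:**
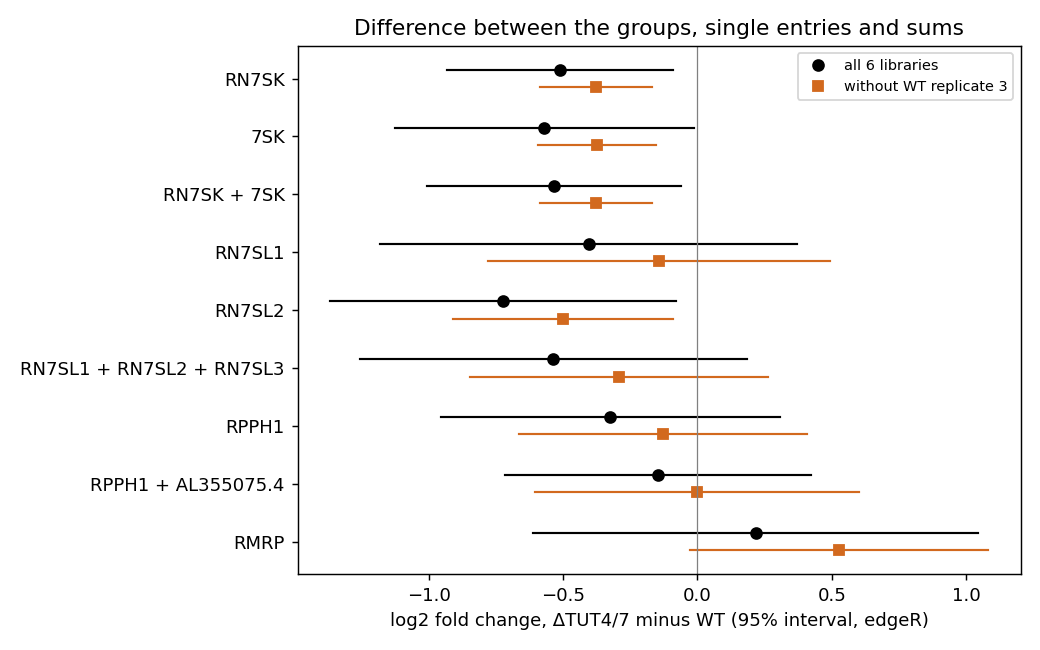
log2 fold change, libraries labelled ΔTUT4/7 minus WT (horizontal axis), with its 95% interval from edgeR, for the entries and for sums of entries that share bases, from all 6 libraries (black) and without WT replicate 3 (orange). Without that library the estimates for 7SK, RN7SL1, RN7SL2 and RPPH1 and for RN7SK lie nearer 0, and that for RMRP lies farther above 0 at 0.53.

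Without WT replicate 3, edgeR called 3 of the 6 entries lower, RN7SK, 7SK and RN7SL2, against 28.3% of genes called lower, and their log2 fold changes were -0.38, -0.37 and -0.50. DESeq2 called the same 3 entries lower with all 6 libraries, against 25.6% of genes. Without robust estimation, which lets a gene more variable than others of its level keep a larger spread, edgeR called 5 of the 6 lower, all but RMRP, against 29.1% of genes. The direction of RN7SK, 7SK, RN7SL1, RN7SL2 and RPPH1 was the same in every alternative run, and the calls were not.

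A ratio of 2 members in the same library does not depend on the library's scaling. Of the 10 ratios among the 5 RNAs (7SK as the sum of its entries), 7 did not overlap between the groups. For ratios of all genes to 7SK, 58.5% did not overlap. With 3 libraries against 3 the exact permutation test cannot go below p = 0.1 (2-sided), which is 0.143 after adjustment over the 10 ratios, so none could pass 0.05.

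All 4 ratios that hold RMRP were separate between the groups, with RMRP on the higher side in the libraries labelled ΔTUT4/7. They are not independent, since all hold RMRP, and ratios were chosen after the data were seen. The share of all genes separate in their ratio to RMRP was not computed, so the 4 are given as a description. The ratio of RMRP to 7SK was 0.230, 0.184 and 0.265 in WT and 0.378, 0.384 and 0.406 in the libraries labelled ΔTUT4/7, a log2 difference of 0.80. The ratio of RMRP to RPPH1, the RNAs that share protein partners, was 0.794, 0.749 and 0.923 in WT. It was 1.28, 1.18 and 1.21 in the libraries labelled ΔTUT4/7, a log2 difference of 0.58. RMRP was thus below the RPPH1 entry in every WT library and above it in every library labelled ΔTUT4/7. That crossing rests on the estimated division of reads between RPPH1 and AL355075.4. Their sum, at 3269, 2406 and 3786 CPM in WT and 2752, 3228 and 2571 CPM in the libraries labelled ΔTUT4/7, was above RMRP in every library. The ratio of RN7SL1 to RMRP went from 2.75 ± 0.298 to 1.74 ± 0.204, and that of RN7SL2 to RMRP from 2.25 ± 0.277 to 1.14 ± 0.0835 (SD, n = 3). The log2 differences were -0.66 and -0.98. Leaving out any 1 library kept the log2 difference of RMRP to 7SK between 0.66 and 0.92.

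RPPH1 to 7SK was separate by a smaller step, from 0.274 ± 0.0248 to 0.319 ± 0.0203, a log2 difference of 0.22. The ratio of RN7SL2 to RPPH1 was also separate, from 1.84 ± 0.109 to 1.39 ± 0.0614 (SD, n = 3), a log2 difference of -0.40. RN7SL1 and RN7SL2 each overlapped between the groups in their ratio to 7SK, at log2 differences of 0.14 and -0.18. RN7SL1 to RPPH1 also overlapped, at -0.08 (exact permutation p = 0.5).

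The division between the main SRP RNA genes differed between the groups. RN7SL1 took 54.2%, 54.7% and 56.1% of the counts of RN7SL1 and RN7SL2 together in WT. It took 59.2%, 61.9% and 60.1% in the libraries labelled ΔTUT4/7. No library overlapped (exact permutation p = 0.1, the smallest possible), and the ratio of RN7SL1 to RN7SL2 differed by 0.32 on the log2 scale, or 0.27 to 0.35 with any 1 library left out. The 4 differing positions are what separates these genes within their shared length. At the RNase P locus, AL355075.4 took 32.5%, 29.0% and 24.7% of the summed counts in WT and 40.8%, 36.2% and 33.3% in the libraries labelled ΔTUT4/7, also without overlap.

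**Figure D4:**
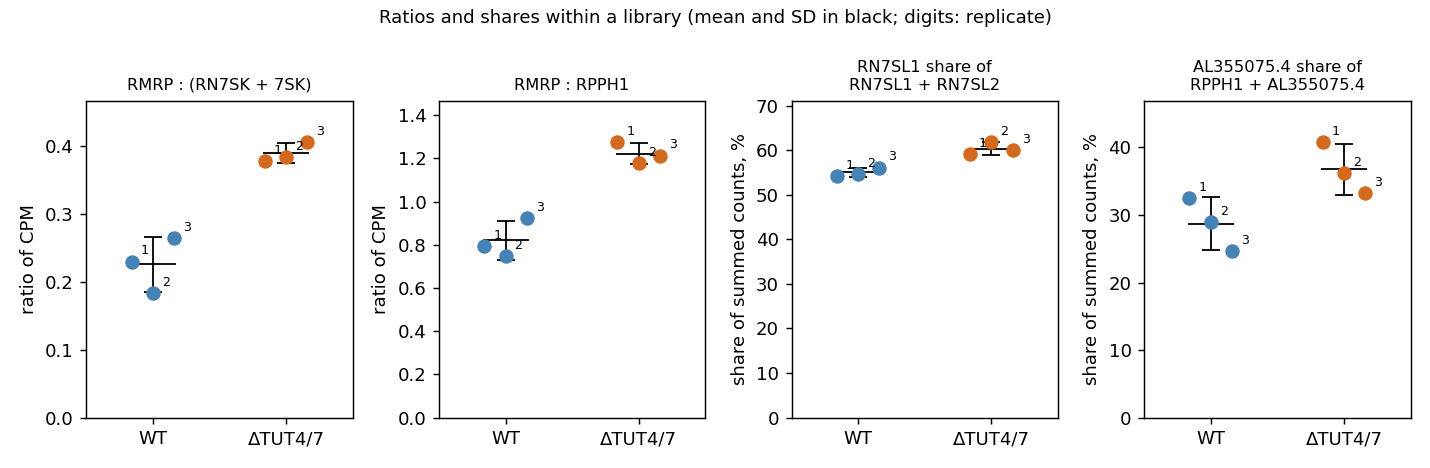
Ratios of CPM of RMRP to the 7SK locus and to RPPH1, and shares in percent of RN7SL1 within RN7SL1 and RN7SL2 and of AL355075.4 within its locus (vertical axes, from 0), with each point a library numbered by its replicate and the mean and SD of 3 libraries in black. None of the 4 panels has overlap between WT and ΔTUT4/7 libraries.

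The listed copies of these RNAs added few counts. The table held 65 copies of RN7SK, which took 0.257% of the family's counts, and their sum was 19.2 ± 0.517 CPM in WT and 17.0 ± 0.132 CPM in the libraries labelled ΔTUT4/7 (SD, n = 3). Of the 21 tested, 0 were higher and 1 was lower (RN7SKP175, -1.31), where 28.6% and 29.0% of all genes were higher and lower. The 65 copies had a median of 23 counts over the 6 libraries (10 to 349). Counts that low limit what the test can call, so few calls do not show that the copies were unchanged. Their median log2 fold change was -0.38. The same number were higher, 0, and lower, 1, at an unadjusted p under 0.05, and DESeq2 and limma-voom each called 0 in either direction. The limma fit on log2(CPM + 1), scaled by library size alone, called 0 higher and 3 lower. The 3 with the most counts were RN7SKP23 (-0.21), RN7SKP16 (0.27) and RN7SKP173 (0.56), none past the test.

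For SRP RNA there were 153 copies with 0.630% of the family's counts, at 51.7 ± 3.32 CPM summed in WT and 49.6 ± 6.12 CPM in the libraries labelled ΔTUT4/7. These copies too had few counts, with a median of 31 over the 6 libraries (10 to 660). Over all genes tested 28.6% were higher and 29.0% lower. The 52 copies tested had a median log2 fold change of -0.25. Of them 2 were higher (RN7SL809P and RN7SL130P, at 1.22 and 1.40 on the log2 scale) and 7 were lower. At an unadjusted p under 0.05 these were 3 and 10, while DESeq2 called 1 higher and 3 lower and limma-voom 3 and 8. The limma fit on log2(CPM + 1), scaled by library size alone, called 2 and 11. Of the 3 with the most counts, RN7SL832P fell by 0.60 on the log2 scale, while Metazoa_SRP was at 0.29 and RN7SL731P at 0.06, both short of the test. The copies called are named after their values were seen. The summed families differed by -0.53 (7SK, edgeR adjusted p = 0.0582) and -0.53 (SRP RNA, edgeR adjusted p = 0.160), close to the main loci alone. The table listed no copy of RMRP or RPPH1.

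Of 15 other polymerase III transcripts looked for, 4 were in the table and 2 were tested. BCYRN1, a brain-type cytoplasmic RNA related to the SRP RNA, rose from 5.80 ± 1.65 to 8.09 ± 0.412 CPM, or by 0.48 ± 0.17 on the log2 scale (SE, edgeR adjusted p = 0.0265). RNY1, a Y RNA, was at 0.721 and 0.385 CPM and did not pass the test. RNY3 and RNU6ATAC had at most 24 counts over the 6 libraries and were not tested.

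The protein partners were read as messenger RNAs from lists of genes in the same pathways. Of 7 genes for the 7SK particle and P-TEFb, 4 were higher and 1 lower in the libraries labelled ΔTUT4/7, with a list median of 0.28 (all genes, -0.02). Over all genes tested 57.7% were called, 28.6% higher and 29.0% lower, and each list below is to be read against those shares. HEXIM1, the inhibitor that 7SK holds against P-TEFb, rose from 45.96 ± 2.16 to 87.8 ± 4.89 CPM, or by 0.93 ± 0.06 on the log2 scale (SE, edgeR adjusted p = 9.50e-12). MEPCE, which caps 7SK, rose by 0.45, CDK9, the kinase of P-TEFb, by 0.53, and its cyclin gene CCNT1 by 0.28. LARP7, which binds the uridine tail of 7SK, was the gene that fell, from 56.7 ± 7.65 to 43.7 ± 3.70 CPM (-0.38 ± 0.10 SE, edgeR adjusted p = 0.00612). LARP7 was at 54.9, 50.1 and 65.1 CPM in WT and at 42.2, 47.9 and 41.0 CPM in the libraries labelled ΔTUT4/7. The order of libraries within both groups was that of 7SK. Of the 10999 genes with a mean of 10 CPM or more, 18.4% had that WT order. In 7.16%, ΔTUT4/7 replicate 2 was also the highest of its group.

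Of 8 genes for SRP proteins and the SRP receptor, 3 were higher and 3 lower, where 28.6% and 29.0% of all genes were, with a list median of 0.15. SRPRB, a receptor subunit, rose by 0.59 ± 0.05 (log2, SE). SRP9, of the Alu domain, fell by 0.33 ± 0.04, and SRP54, the signal peptide binding subunit, by 0.27 ± 0.05. SRP68 and SRP19 rose by 0.29 and 0.27, and SRP72 fell by 0.31. SRP14, the partner of SRP9, was at 0.24 ± 0.16 and did not pass the test.

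All 11 genes for RNase P and MRP proteins passed the test, 10 of them higher and 1 lower, where 57.7% of all genes passed and 28.6% were higher, with a list median of 0.67. POP7 rose by 1.04 ± 0.07 (log2, SE), RPP30 by 0.67 ± 0.06 and POP1, the largest subunit, by 0.46 ± 0.06. The gene that fell was RPP25, which pairs with POP7 on the RNA, and it went from 37.3, 36.7 and 45.4 CPM in WT to 4.31, 3.71 and 3.68 CPM in the libraries labelled ΔTUT4/7. The groups were far apart, at a log2 fold change of -3.33 ± 0.11 (SE, edgeR adjusted p = 5.69e-16). Neither RNA of these enzymes passed the same test.

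Of 12 genes for factors of the upstream-promoter type of polymerase III gene, for MAF1 and for La, 6 were higher and 2 lower, where 28.6% and 29.0% of all genes were, with a list median of 0.22. SSB, the La protein, rose from 156 ± 14.96 to 265 ± 17.3 CPM, and MAF1, the repressor of polymerase III, from 27.6 ± 3.00 to 50.7 ± 1.29 CPM. BDP1, a subunit of the initiation factor TFIIIB, rose by 0.34 on the log2 scale. TBP and SNAPC3 fell by 0.51 and 0.15, and SNAPC1, of the complex that binds the upstream element, was at 0.07 ± 0.10 and did not pass. CCNT1, SRP19, SRP68, SRP72, TBP and SNAPC3 are named because they complete a small count, after their values were seen.

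**Figure D5:**
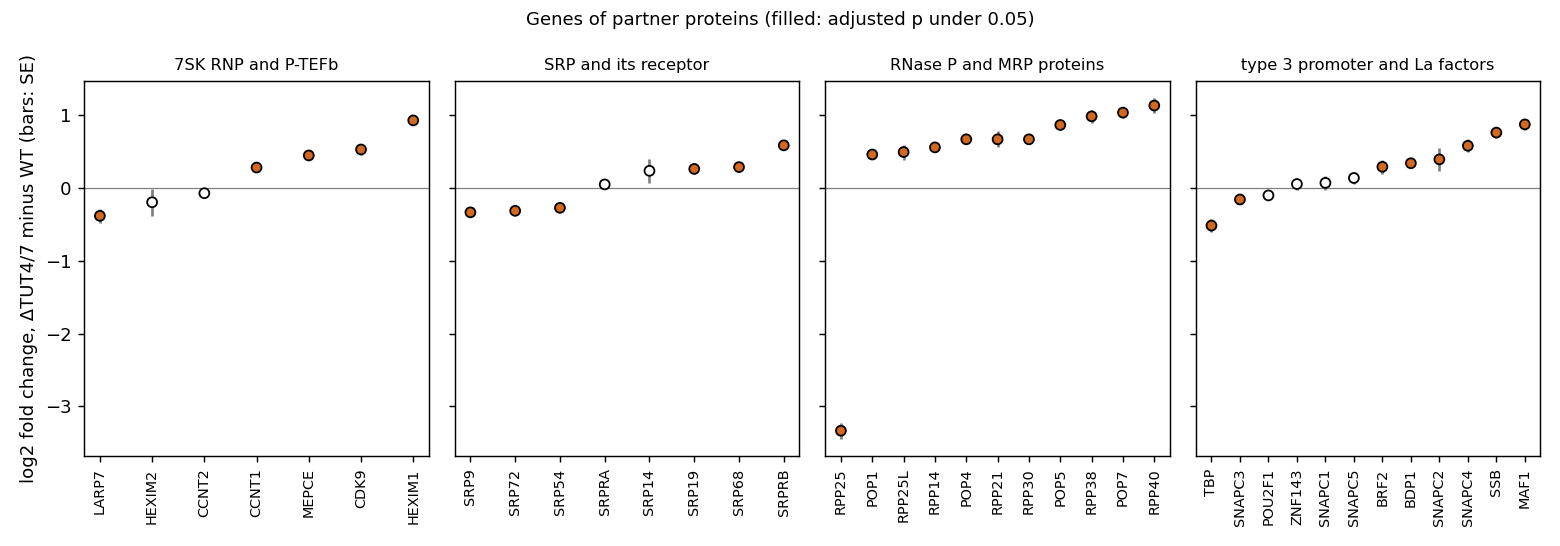
log2 fold change, libraries labelled ΔTUT4/7 minus WT (vertical axis), with SE bars, for the genes of 4 lists of protein partners and factors, filled where the edgeR adjusted p was under 0.05. In the list for RNase P and MRP all 11 genes are filled, 10 above 0 and RPP25 at -3.33.

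Genes next to the loci gave a check of what the region did. Within 1 Mb of the loci, genes with a mean of at least 50 counts had median log2 fold changes between -0.03 (RPPH1, 20 genes) and 0.12 (RN7SL2, 23 genes), with 0.09 around RN7SK (14 genes), 0.08 around RN7SL1 (19 genes) and 0.07 around RMRP (27 genes). GSTA4, 316 bases from RN7SK, fell by 0.48 ± 0.07 (log2, SE), and CILK1 on the other side was at 0.12. RPS29 overlaps RN7SL1 on the opposite strand and was at -0.20 ± 0.19 without passing the test. Whether the counting used strand is not given in the sources used here, so reads of the 2 cannot be told apart. AL627171.2, which overlaps RN7SL2 on the same strand, fell by 1.04 ± 0.33 from 1.58 CPM in WT, and the division of reads between it and RN7SL2 is uncertain. The nearest other genes were RPL32P29 (-1.42) and LRR1 (0.12) for RN7SL1, NEMF (0.02) and AL627171.1 (-0.16) for RN7SL2, CCDC107 (1.85, below 2 CPM) and CD72 (-1.31) for RMRP, and PARP2 (0.02) and CCNB1IP1 (-0.92) for RPPH1. Of these RPL32P29, CCDC107, CD72 and CCNB1IP1 passed the edgeR test, where 57.7% of all genes tested did. CD72 was also low, at 1.23 CPM in WT and 0.48 CPM in the libraries labelled as the double knockout.

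Likeness to a member was measured as the root mean square distance between log2 CPM profiles, each centred on its mean over the 6 libraries, among 10993 genes with a mean of 10 CPM or more. The nearest to RN7SK were ZBED6 (0.0617), 7SK (0.0622) and SH3KBP1 (0.0664). The nearest to RN7SL1 were AC010343.1 (0.0724), MT-ATP8 (0.0841) and AC116533.1 (0.106), with RPPH1 at rank 4. RMRP stood at rank 3617 from RN7SL1 and at rank 6565 from RN7SK.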

How the data were processed

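RNA of 3 WT and 3 ΔTUT4/7 HEK 293T libraries was rRNA-reduced and sequenced paired-end. The authors aligned reads to hg38 with STAR 2.7.3a in Partek Flow 10.0.22 and deposited estimated counts per gene, divided by expectation maximisation over Ensembl Transcripts release 102. Their deposited table of fold changes and p-values was not used. Counts were rounded and genes whose largest count was above 12 were kept (23952 of 30270). Groups came from the labels. The test was edgeR 4.0.16 (R 4.3.3, TMM, robust quasi-likelihood fit), with Benjamini-Hochberg adjustment over all genes tested. On simulated data it recovered 100% of 4-fold and 89% of 2-fold changes among 200 altered genes. Alternatives were DESeq2 1.42.0, limma 3.58.1 (voom, and log2(CPM + 1)), other scalings and filters, summed copies, a replicate block and leaving out each library. In log2(CPM + 1) the CPM were scaled by library size alone, without TMM. Fits without robust estimation, sums over entries sharing bases, and ratios were chosen after the data were seen. The sampling precision of counts this deep is far finer than the spread between libraries.

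The members and lists were chosen with earlier results of these data known. Named were all members, the 3 copies with the most counts per family, TUT4 and TUT7, set genes and the 2 smallest p of each partner list, neighbouring and overlapping genes, and the 3 genes nearest in profile to RN7SK and to RN7SL1. The gene coordinates are those of the table, with the listed stop taken as 1 past the end. Upstream and 3′ end sequences are from hg38, since the 5 loci had no entry in the RefSeq promoter table. The sequences of the SRP RNA genes themselves are not reported here. Rows that merge distant places under 1 name were left out as neighbours.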

Additional observations from a re-analysis of the deposited data

How the results depend on the processing

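RN7SK lost its call in limma-voom (-0.52), with no count filter (-0.51), with copies summed (-0.53) and in the fit with a replicate block (-0.50). With 1 library left out it ranged from -0.60 to -0.38, and the call was lost without WT replicate 1, ΔTUT4/7 replicate 1 or ΔTUT4/7 replicate 3. The 7SK entry was called with DESeq2 (-0.57), scaling by library size alone (-0.69), limma on log2(CPM + 1) (-0.67), a mean count of 50 (-0.64) and upper-quartile scaling (-0.67), with a range of -0.70 to -0.37 when 1 library was left out. RN7SL2 was called under the same 5 settings (-0.72, -0.84, -0.82, -0.79 and -0.82) and ranged from -0.87 to -0.50. The sum of RN7SK and 7SK was called under them too (-0.53, -0.65, -0.64, -0.60 and -0.63), ranging from -0.64 to -0.38, as was the whole RN7SK family (-0.53, -0.65, -0.64, -0.60 and -0.63), ranging from -0.64 to -0.38. Library size alone moved the median of all genes by -0.114 and upper-quartile scaling by -0.1. The limma fit on log2(CPM + 1) also used library size alone, without TMM, and moved that median by -0.072. Part of the larger folds under these 3 settings is therefore a shift of every gene. With a mean count of 50 the estimate of every member was lower too, while that median moved by 0.018. RMRP went from 0.22 to 0.15 and RPPH1 from -0.33 to -0.39 there. The cause of this common step was not tested.

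Without robust estimation, edgeR called 7SK (-0.57), RN7SL1 (-0.41), RN7SL2 (-0.72), RPPH1 (-0.33), RN7SK + 7SK (-0.53), the RN7SK family (-0.53), RN7SL1 + RN7SL2 + RN7SL3 (-0.54) and the RN7SL family (-0.53). limma-voom without it called 7SK (-0.57), RN7SL1 (-0.42), RN7SL2 (-0.73), RN7SK + 7SK (-0.54), the RN7SK family (-0.54), RN7SL1 + RN7SL2 + RN7SL3 (-0.55) and the RN7SL family (-0.55). By construction those fits draw the spread of a variable gene toward that of genes at its level. RMRP reversed without WT replicate 2, at -0.002, in a range from -0.002 to 0.53, and it was called under none of the settings run. RN7SL1 ranged from -0.56 to -0.14, the sum of RN7SL1, RN7SL2 and RN7SL3 from -0.69 to -0.29, the RN7SL family from -0.68 to -0.29, RPPH1 + AL355075.4 from -0.31 to -0.001 and RPPH1 from -0.49 to -0.13 with 1 library left out, and none of these was called there. The causes of the other changes of call were not tested.

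Same-numbered libraries did not deviate together (r of 0.0611, 0.00542 and -0.0354 over 15574 genes), so the numbers are not taken as a pairing and the replicate block stands only as an alternative. Counts of calls over all genes and in the partner lists stayed within 1.5 times of their reported values. Depth did not limit the members, whose spread between libraries was far above counting error.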
